A study of Mus musculus with 12 samples.

Results

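The 720 regions described here are m6A peaks on mouse skin genes whose deposited exon intervals merge into a single block. Each one was called in the UV arm, spans up to 10000 bp, overlaps a control-arm peak on the same strand, and lies in a gene that has 1 exon after this merging, which also takes in 63 genes with several overlapping intervals whose separate transcripts may be spliced. They make up 4.86% of the 14803 UV-arm peaks shared with the control arm, and they come from 505 of the 19346 single-exon genes in the count table. The samples were skin of Mus musculus labelled Control (3 samples) or UV light (3 samples), and each gave 1 library of RNA pulled down with an antibody to m6A (IP) and 1 of the RNA before pull-down (input), 12 libraries in all. The labels give no strain, age, dose or schedule of light, and nothing says whether the samples were separate animals, so p-values here measure only the spread between these samples. The series title concerns the m6A writer KIAA1429 (also called Virma) and photoaging, and every library was of plain control or irradiated skin with no labelled change of a writer.

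N6-methyladenosine (m6A) is the methyl mark that METTL3 and METTL14, with adaptor proteins such as WTAP and VIRMA, place on adenosines of messenger and long noncoding RNA. The favoured sequence is DRACH, of which GGACT is a common form. In spliced transcripts, exon junction complexes keep the writer away from sequence close to junctions, so the mark gathers in long internal exons and in last exons, often near the stop codon. A gene with 1 exon loads no exon junction complex. Such genes include many short regulators, among them JUN, C/EBP, SOX and FOX transcription factors, frizzled receptors and immediate early genes, and also many histones. The mitochondrially encoded genes, such as those of complex I subunits, also have 1 exon but are not regulators.

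The table of promoters from RefSeq (GRCm38.p6, the same build as the files) covered 9204 bases summed over 68 of the 720 peaks. Sequence elsewhere in the peaks was not used here. GGACT stood on the transcript's own strand in 10 of those 68 peaks, counted 12 times or 1.30 per kb. On the other strand it stood in 12 peaks, counted 13 times or 1.41 per kb. Counting was per peak, so a place that overlapping peaks of 1500002C15Rik share counts in each. The Sdhaf1 place printed below counts again as other strand for the E130208F15Rik peak that faces it. Of 32851 RefSeq windows of 300 bases, 26.1% held GGACT on the gene's strand and 26.0% on the other strand, with 1.03 per kb on the gene's strand. By this count the motif was as frequent on the other strand of the peaks as on the transcript's strand in these stretches, which lie near gene starts. The 8 sites nearest to a peak's midpoint, out of 10 with 12 known bases on each side, are printed below because they are the places where a letter-for-letter match to the favoured motif falls inside a member peak. Capitals mark GGACT, and each is written 5′ to 3′ on the transcript's strand.
Gm43412, chr5:123037097-123037125, plus strand: gcaaactaggcaGGACTggattgcactgg
Gm43412, chr5:123037164-123037192, plus strand: gaaagaaaagctGGACTataaggaggcaa
1700008J07Rik, chr7:127511935-127511963, minus strand: cgtgctagcgtaGGACTgtgcggcgcaaa
4933440N22Rik, chr6:117906655-117906683, minus strand: gggagaggggcgGGACTagagagctgtgg
Gm44890, chr7:6157064-6157092, plus strand: tgttcaagcgctGGACTtccgtggttaga
Gm45606, chr11:75531536-75531564, minus strand: ccggttccggccGGACTtggagacaaaca
Bola2, chr7:126695792-126695820, plus strand: agcggaaccgcaGGACTggctgccctcca
Sdhaf1, chr7:30322551-30322579, minus strand: cagaaatatccaGGACTgtaaggcactca
The Gm43412 match at chr5:123037097-123037125 was the nearest, 13.0 bases from its peak's midpoint. Bola2 encodes an iron-sulfur cluster assembly factor, and its match lay 88.5 bases from the midpoint of a 386 bp peak. Enrichment of that Bola2 peak, as log2 of IP over input (each count plus 1, divided by the library's reads in genes), was 1.22, 1.73 and 1.41 in the control samples and 1.36, 0.93 and 1.57 in the UV samples. All 6 values were above 0 and the groups overlapped. A peak of Slx1b on the other strand overlaps this Bola2 peak, with 1374 reads against 1782. GGACT also stood on that strand, and peak counts did not separate strands, as given below. Sdhaf1 encodes an assembly factor of succinate dehydrogenase, and the peak that holds its match gave 0.72, 1.55 and 1.48 in control and 2.74, 1.05 and 1.72 in UV, again with overlap.

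Member genes were a mixture of coding and poorly annotated transcripts. RefSeq matched 293 of the 505 genes, 22 of them through an older symbol: 260 protein-coding genes with 408 peaks, 25 long noncoding RNA genes with 45 peaks, 7 pseudogenes with 9 peaks and 1 transcribed pseudogene with 1 peak. The other 212 genes, with 257 peaks, were unmatched, and 203 of these carry provisional Gm, Rik or clone names. In 442 genes the files list 1 exon interval, and in 63 genes several overlapping intervals merged into 1, as for Dynll1, which encodes a dynein light chain and becomes 1 block of 3890 bp only by merging of 12 deposited intervals, and Rgs1, a regulator of G protein signalling, with 21. Genes of this kind are single-exon by the merging rule and need not lack introns in every transcript. Most genes (368) held 1 peak, 88 held 2, 33 held 3, 14 held 4, and 2 held more: Kcnq1ot1 with 15 and 6330403L08Rik with 6.

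Peaks in single-exon genes were spread along the transcript. The median peak was 270 bp wide (quartiles 180 and 449) and covered 10.9% of its exon, and its midpoint lay 44.8% of the way from the 5′ end. In steps of 20% of the exon, from 5′ to 3′, 150, 165, 164, 131 and 110 peaks had their midpoint there. Among 6407 shared peaks in last exons of spliced genes, 34.0% fell in the first 20% of that exon against 20.8% of the members, and the median position was 31.6%. The 3294 shared peaks in internal exons had a median position of 46.8% and 10.8% in the last 20%, where members had 15.3% and last exons 9.16%. These shares are descriptions of where peaks fell, with no test, since peaks of 1 gene share its reads. Recovery between arms was somewhat lower than for other peaks: 51.7% of the 1393 UV-arm peaks in single-exon genes overlapped a control-arm peak, against 59.3% of all 24969 UV-arm peaks. The threshold on width had little part in the choice, since the widest member was 4672 bp (on Ubald1, another gene merged from several intervals, here 5) and no single-exon shared peak exceeded 10000 bp.

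**Figure D1:**
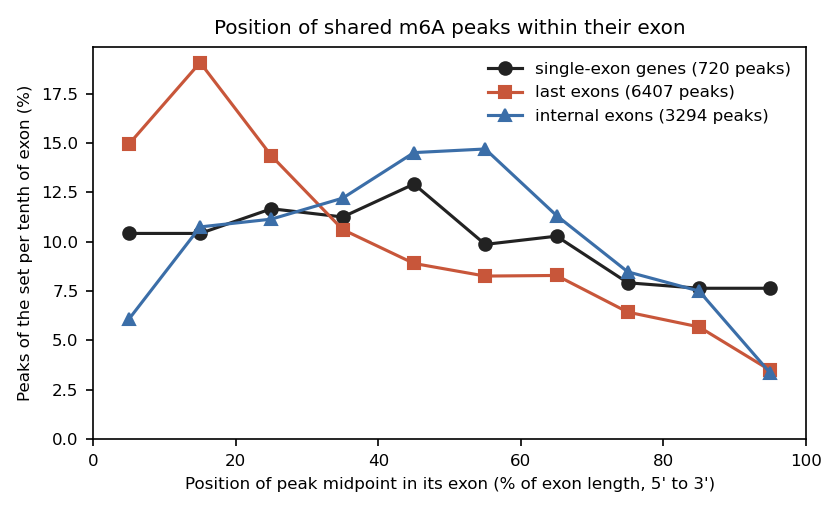
Share of peaks (vertical axis, percent of each set) in each step of 10% of the exon from 5′ to 3′ (horizontal axis, percent of exon length) for shared peaks in single-exon genes, last exons and internal exons. Last-exon peaks gather near the start of the exon, with a median position of 31.6%, while member peaks have a median of 44.8% and a flatter profile.

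Many member peaks do not stand alone on the genome, which bears on every value below. At 435 of the 720 peaks there was no exon of another gene on either strand and no intron of another gene on the same strand. Introns of opposite-strand genes were not looked at. At 117 an exon of a gene on the opposite strand overlapped. Of the rest, 16 lay in another gene's exon on the same strand and 152 in an intron of another gene on the same strand. Counting all overlaps, 164 peaks lay in a same-strand intron. Of the 257 peaks of unmatched genes, 102 were among the 152. Peak counts did not separate strands: 25 members overlapped an opposite-strand UV-arm peak by at least 90% of both, and for 20 of these 25 members all 12 counts were within 5% of those of the opposite peak. Where both peaks of a pair are members, each counts. The Sdhaf1 peak shown above and its partner on E130208F15Rik, a noncoding transcript on the other strand, both had 963 reads over the 12 libraries, with equal counts in every library. Near Foxq1, a forkhead factor, a peak with 5441 reads faced one of A530084C06Rik with 5426, and counts were equal in 6 of the 12 libraries. In addition, 49 members overlapped another member on the same strand, as with both H2afj rows and both Sox12 rows, so their values are not separate measurements. At 50 members the peak held more input reads than its whole gene had in the gene counts. At Gm37376, which lies opposite Malat1, IP coverage reached 31099 CPM (counts scaled by the library's reads in genes) per kb, the highest of any member, and its reads cannot be told apart from those of Malat1.

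Enrichment was of the same order as in spliced genes. The median log2 IP over input of the 720 members was 1.06, 1.19 and 1.22 in the control samples and 1.27, 1.30 and 1.29 in the UV samples. Last-exon peaks had 1.09, 1.23 and 1.23 in control and 1.37, 1.32 and 1.36 in UV, and internal-exon peaks 0.97, 1.08 and 1.06 in control and 1.16, 1.14 and 1.16 in UV. Because peaks were called from IP against input, these values describe the peaks and test nothing. In 662 members (91.9%) IP exceeded input in all 6 samples, against 96.0% of last-exon peaks. The 408 peaks of protein-coding genes had higher medians, 1.14, 1.37 and 1.29 in control and 1.50, 1.47 and 1.45 in UV, than the 102 peaks of unmatched genes in same-strand introns, at 0.75, 0.59 and 0.84 in control and 0.73, 0.84 and 0.85 in UV. The latter set was lower in every sample. A mean below 0 was seen in 12 members, among them both a peak of Calm5, a calmodulin-like gene, and one of Gm44001, which lies in an intron of Mgll.

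Within a single transcript enrichment could differ from peak to peak by more than the spread between samples. Sfn, which encodes the epidermal 14-3-3 sigma protein, had the widest gap among the 137 genes with several peaks. Its peak at 74.95% of the exon (chr4:133600556-133601362, minus strand) had log2 IP over input of 2.13, 2.63 and 2.44 in control and 2.62, 2.55 and 2.62 in UV. Its other peak, at 27.8%, had 0.57, 0.25 and 0.61 in control and 0.39, 0.45 and 0.52 in UV. Every value of the first peak lay above every value of the second, and the means over 6 samples were 2.498 and 0.466. Sfn was also among the most abundant member genes in input. The second peak had an input level of 1732 CPM per kb against 442 for the first. Input is the lower term of the ratio, so this difference in input coverage enters the gap. Its part in the gap was not tested.

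Transcription factors showed the same unevenness. Jun, a component of AP-1, had 3 peaks with means over 6 samples of 0.53 at 12.2% of the exon, 0.89 at 21.95% and 2.05 at 64.9%. The last of these gave 1.77, 2.21 and 2.08 in control and 2.12, 2.04 and 2.10 in UV, above all values of both others. The Jun peak at 21.95% overlaps a peak of Junos on the other strand. Foxc1, a forkhead factor, had its strongest peak near the start of the exon instead (9.09%), at 1.79, 2.88 and 2.19 in control and 3.52, 2.79 and 2.74 in UV. Foxc1 values at 27.3% of the exon, 0.90, 1.30 and 1.07 in control and 1.26, 1.13 and 1.08 in UV, were lower in each sample. Sox4, a SOXC factor, had means of 1.30 at 11.3%, 2.05 at 44.4% and 1.75 at 60.9%. Cebpb, a C/EBP factor, had 1 peak with 1.79, 1.66 and 1.81 in control and 2.36, 2.67 and 2.18 in UV. All its UV values lay above all control values, as in 10.7% of members tested and 15.7% of all peaks tested. Its change in the comparison below was 0.55 (SE 0.25, edgeR adjusted p = 0.617). Cebpa had 0.74, 0.95 and 0.81 in control and 1.00, 0.81 and 0.76 in UV. Over the 137 genes the gap between the highest and lowest peak had a median of 0.51 and exceeded 1 in 23 genes, chosen here for that gap.

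**Figure D2:**
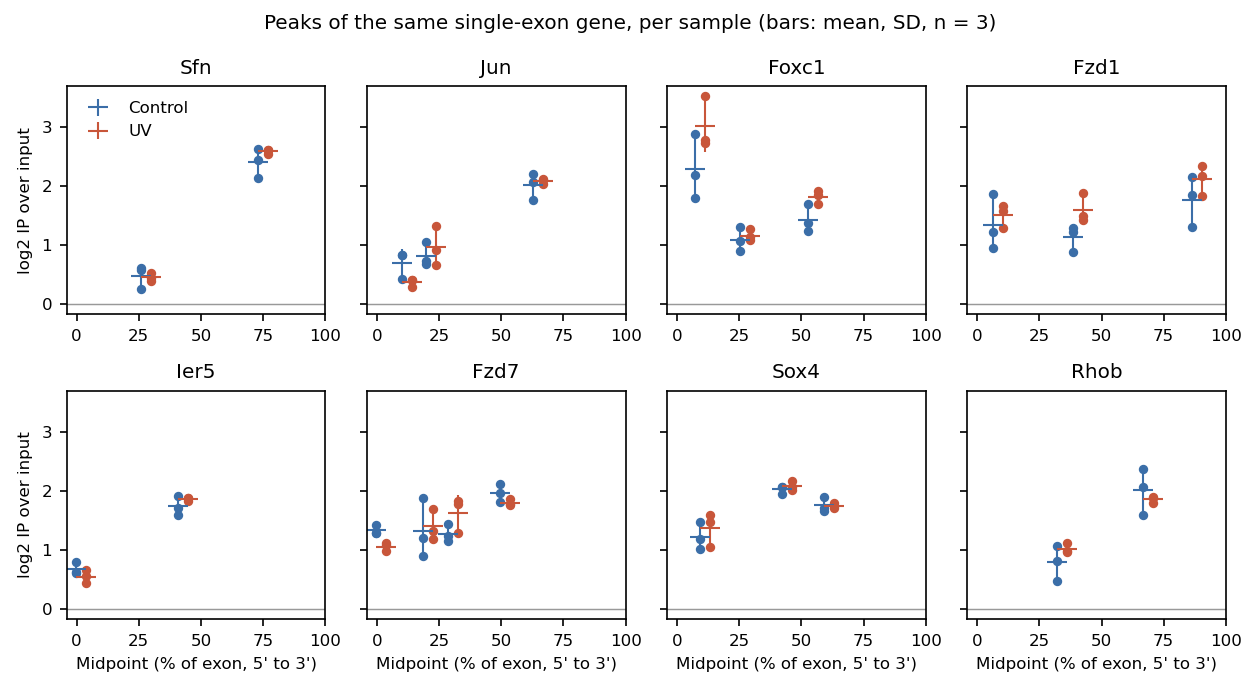
Log2 IP over input (vertical axis) of each member peak against the position of its midpoint in the exon (horizontal axis, percent from 5′ to 3′) in 8 genes. Points are samples, drawn slightly left (control) or right (UV) of the midpoint, and bars the mean and SD of 3. Sfn, Jun, Ier5 and Rhob each have a weak peak toward the 5′ end and a stronger one farther along, while Foxc1 is strongest at 9.09%.

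The median over peaks of the mean log2 IP over input was 1.13 for the 8 peaks of AP-1 and immediate early genes and 1.40 for the 12 of frizzled receptors and WNT or Notch regulators, beside 1.28 for all members. It was 1.61 for the 22 peaks of SOX, FOX and POU factors. Ier5, an immediate early gene, had means of 0.61 at 1.82% and 1.80 at 42.7% of the exon, and Ier2 had 1 peak with 1.29, 1.63 and 1.14 in control and 1.45, 1.35 and 1.33 in UV. Jund had 0.67, 0.69 and 0.66 in control and 0.92, 0.96 and 0.80 in UV. The Jund peak, with 9352 reads, overlaps a peak of Gm11175 with 7438 reads on the other strand. Fzd7, a WNT receptor, had 4 peaks with means of 1.19, 1.36, 1.45 and 1.88 from 5′ to 3′. Rhob, a small GTPase, had 0.90 at 34.0% and 1.93 at 68.6%. The 12 peaks of frizzled receptors and WNT or Notch regulators were above 0 in all 6 samples, as were the 22 peaks of SOX, FOX and POU factors. The same held for 91.9% of all members, since peaks were called from IP against input. Among receptors, Mc1r, the melanocortin receptor of melanocytes, had a peak mean of 1.93. Mc1r gave 1.90, 1.68 and 2.52 in control and 1.77, 1.51 and 2.20 in UV, on a transcript with a mean input level of 1.67 CPM in control, and its peak faces one of Gm38092 on the other strand.

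The 14 histone peaks had a median of 0.88 and the 3 heat shock peaks one of 1.23, against 1.28 for all members. All 14 histone peaks were above 0 in each sample, as were 91.9% of all members. Hist1h1e, a linker histone, gave 1.09, 0.79 and 1.09 in control and 1.28, 1.32 and 1.30 in UV, and the H1f0 peak with the most IP reads, at 38.3% of the exon, gave 0.64, 0.82 and 0.65 in control and 0.92, 0.94 and 0.91 in UV. In these 2 examples each UV value was above each control value, as in 10.7% of members tested and 15.7% of all peaks tested. These ratios were shifted upward in UV over all peaks before the scaling of the test. The changes in the comparison below were 0.21 (SE 0.18) and 0.12 (SE 0.14), with edgeR adjusted p of 0.798 and 0.872. Histone peaks also differed within a gene: the first of the 3 H1f0 peaks, at 13.0%, had a mean of 1.68 against 0.81 at 38.3%, and Hist1h1c, another linker histone, had 0.81 at 30.8% and 1.79 at 72.1%. Hspa1a, an inducible HSP70 gene, had a peak mean of 0.08 at 3.54% of the exon and 1.33 at 60.1%. Both peaks, with 4982 and 122889 reads, overlap a Gm20481 peak with 199684 reads on the other strand. Peak counts did not separate strands, so these ratios cannot be credited to Hspa1a alone. Hspa1a and Hspa1b are near-identical copies, as are many histone genes, so how the authors' counting split their reads is uncertain.

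Mitochondrially encoded transcripts and hair genes were also among the members. The 11 peaks of mitochondrial genes had a median of 1.02 and were above 0 in every sample, as were 91.9% of all members. The peak of mt-Nd2, a complex I subunit, gave 1.64, 2.00 and 1.91 in control and 1.79, 1.69 and 1.76 in UV. The peaks of mt-Nd5 and mt-Nd6, genes on opposite strands that adjoin each other, cannot be separated where they overlap. Of 57 hair keratin-associated genes, 6 had a member peak, all above 0 in each sample, with Krtap3-3 at 1.35, 1.99 and 1.32 in control and 1.77, 1.90 and 2.18 in UV.

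Kcnq1ot1, the long noncoding RNA that silences an imprinted domain on the paternal chromosome, carried 15 member peaks along an exon of 84395 bp. Their means over 6 samples ran from 0.62 to 1.24, and 13 of the 15 midpoints lay in the 3′ part beyond the middle of the exon. The peak at 37849 bp from the 5′ end (chr7:143258131-143259270, minus strand) gave 1.06, 0.68 and 1.27 in control and 1.21, 1.42 and 1.71 in UV. The peak nearest the 5′ end, at 1245 bp, gave 0.27, 0.87 and 0.78 in control and 0.79, 0.39 and 1.06 in UV. Groups overlapped at both.

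**Figure D3:**
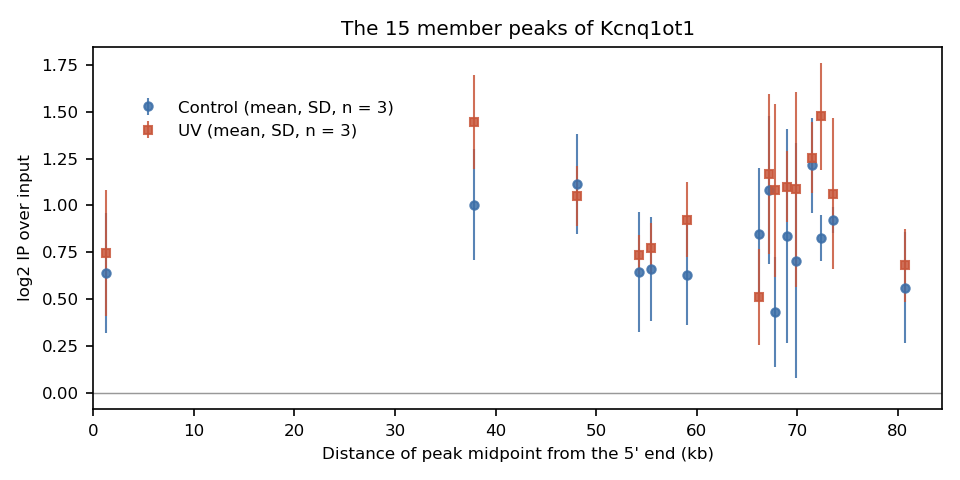
Mean log2 IP over input with SD (3 samples per group) of the 15 Kcnq1ot1 peaks (vertical axis) against the distance of the midpoint from the 5′ end in kb (horizontal axis). All means lie above 0, and most peaks sit in the 3′ part of the transcript.

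Whether light changed m6A enrichment at these peaks was tested as the difference between groups of IP over input, (UV IP over UV input) over (control IP over control input), with edgeR's quasi-likelihood test over all peaks. This fit had no term for the sample that IP and input share, and a fit with such a term is given below. Without that term no member was called at an adjusted p under 0.05 (0 of 698 members tested). The background over all 39910 peaks tested was 0 (0.0%). At an unadjusted p under 0.05 there were 32 members (4.58%) against 8.08% of all peaks, with 18 members higher in UV (2.58%, background 5.22%) and 14 lower (2.01%, background 2.86%). The median change was 0.03 on the log2 scale for the members and 0.03 for all peaks. All 3 UV values lay above all 3 control values in 75 members (10.7%) against 15.7% of all peaks, and below in 20 (2.87%) against 4.49%. By the rule, members were called in both arms, while all peaks include those called in a single arm. Shares of members and of all peaks, here and elsewhere, are therefore not like for like. In the authors' deposited table no member had an FDR under 0.05 (0 of 720, against 0.105% of all peaks), and the lowest was 0.145, for a peak of Mgat2, an enzyme of N-glycan synthesis. On the scale of reads in genes, without further scaling, the mean was higher in UV in 486 members (67.5%), and over all 42989 peaks the medians were 0.88, 0.99 and 1.00 in control and 1.13, 1.12 and 1.15 in UV. The scaling of the test sets this shared shift aside.

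**Figure D4:**
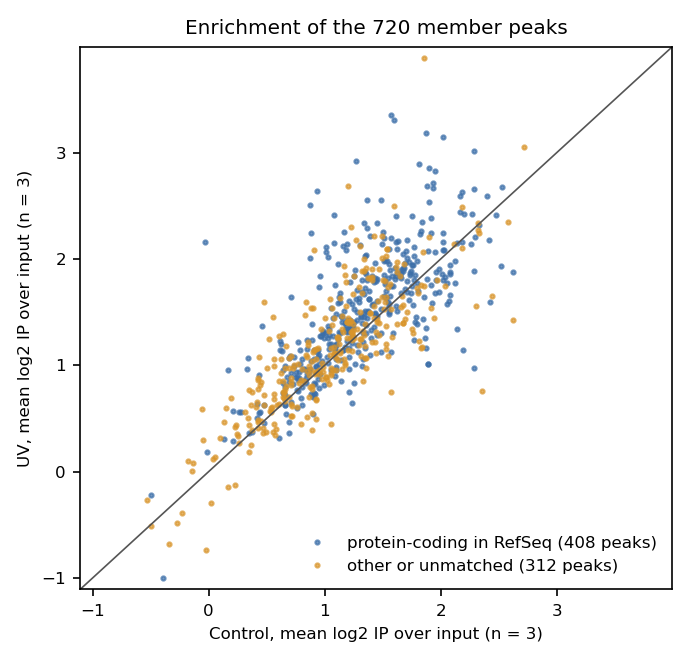
Mean log2 IP over input in control (horizontal axis) and UV (vertical axis) of the 720 member peaks, 3 samples per group, coloured by RefSeq class, with the line of equality. The peaks follow the line, with 67.5% of them above it before the scaling used in the test.

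IP and input libraries of a number come from the same sample, and a fit with the sample as a replicate block called 3 members (0.430%), against 0.872% of all peaks. All 3 were higher in UV, against 0.393% of all peaks. At an unadjusted p under 0.05 this fit had 79 of 698 members, and the share of all peaks was not counted. DESeq2, without the block, called 1 member against 0.0501% of all peaks. Dynll1, 1 of the genes merged from several intervals, was that member and had the smallest p of all members in the fit without the block. Its peak (chr5:115298573-115298753, minus strand) gave log2 IP over input of 1.11, 1.40 and 1.50 in control and 2.26, 2.43 and 2.31 in UV, with no overlap. IP levels over the peak were 10.2, 10.6 and 11.1 CPM in control and 13.6, 12.2 and 11.4 in UV, while input levels were 4.74, 3.98 and 3.93 CPM in control and 2.82, 2.25 and 2.28 in UV. The UV samples were higher in IP and lower in input, the latter by more. By edgeR the change was 0.91 (SE 0.18), with an adjusted p of 0.495. Adding the replicate block left it at 0.91 (SE 0.16) and lowered the adjusted p to 0.00475, and DESeq2 gave 0.88 with an adjusted p of 0.0369. Over the whole Dynll1 gene, input levels were 186, 214 and 238 CPM in control and 250.2, 232 and 247 in UV (log2 change 0.19, SE 0.10, adjusted p = 0.279). Gene CPM also carries the scaling factors of the gene fit, so these levels are not on the scale of the peak levels.

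The other 2 members called with the block were mt-Nd1 and Hist1h2an. At mt-Nd1, a complex I subunit, log2 IP over input was 0.57, 0.51 and 0.74 in control and 1.12, 1.46 and 1.24 in UV. Its input over the peak was 34.4, 43.1 and 36.8 CPM in control and 29.0, 22.5 and 26.0 in UV, and the change was 0.56 (SE 0.18, adjusted p = 0.540), or 0.57 with the block (adjusted p = 0.00749). At Hist1h2an, a histone H2A gene, IP over input was 0.49, 0.71 and 0.69 in control and 1.07, 1.10 and 1.24 in UV, and the change was 0.42 (SE 0.18, adjusted p = 0.607), or 0.41 with the block (adjusted p = 0.0442). At both peaks all UV values of the ratio lay above all control values. Hist1h2an IP levels were 49.1, 39.0 and 48.4 CPM in control and 34.3, 35.1 and 36.7 in UV, and input levels 35.01, 23.7 and 29.95 in control and 16.3, 16.4 and 15.6 in UV, so both were lower in UV and input by more.

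The remaining members with the smallest p were far from the threshold in each direction in the fit without the block. With the block the nearest of them were Mgat2 (adjusted p = 0.0561), mt-Nd6 (0.0815) and Kbtbd7 (0.0972), and the other named ones had 0.104 or more. Toward higher values in UV they were peaks of Galnt4, Tbcc, Kbtbd7, Hnrnpa0, Ado, Mgat2, Pbp2 and Irf2bpl, with changes between 0.60 and 1.94 and edgeR adjusted p between 0.540 and 0.580. Galnt4, a GalNAc transferase of O-glycosylation, gave 0.63, 0.74 and 1.24 in control and 2.03, 2.08 and 1.91 in UV (change 1.09, SE 0.35). Hnrnpa0, an RNA-binding protein, gave 1.29, 2.99 and 1.56 in control and 2.83, 3.09 and 2.56 in UV (change 0.96, SE 0.34), and here the groups overlapped. The largest change, 1.94 (SE 0.74) at Pbp2, stood on input levels of 0.172, 0.332 and 0.167 CPM in control and 0.0543, 0.159 and 0.0298 in UV.

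Toward lower values in UV they were the 5′ peak of Jun and peaks of Sox12 (2 overlapping rows), Fzd7, Zfp830, Tmem30b, Exoc8, Wdr5b, Fv1 and mt-Nd6, with changes between -0.65 and -0.26 and adjusted p between 0.591 and 0.657. The Jun peak at 12.2% of the exon gave 0.82, 0.83 and 0.42 in control and 0.28, 0.41 and 0.41 in UV (change -0.45, SE 0.18), while the strong Jun peak at 64.9% changed by -0.02 (SE 0.16). At Fzd7 the peak nearest the start gave 1.29, 1.42 and 1.28 in control and 1.08, 1.11 and 0.98 in UV (change -0.38, SE 0.17). Sox12, a SOXC factor, gave 1.49, 2.16 and 1.68 in control and 1.28, 1.26 and 1.69 in UV (change -0.46, SE 0.19). The Sox12 groups overlapped, the Jun groups nearly met, and the Fzd7 groups were apart. In the fit without the block a typical standard error, the median over the 698 members, was 0.29. Small changes at single peaks could not be resolved in that fit.

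Transcript levels were compared in the input libraries. Of 499 member genes tested, 29 (5.81%) were called by edgeR's quasi-likelihood test at an adjusted p under 0.05, against 5.83% of all 24099 genes. Of these, 17 were higher in UV (3.41%, background 3.02%) and 12 lower (2.40%, background 2.81%), so the members' share was close to that of all genes. The count rested on single samples: without UV sample 1, 2 or 3 it was 4, 4 and 5, and without control sample 1 it was 6. Of the 29, only Rnase2b, Kctd12, Gm44001 and Gm44005 were called whichever of the 6 samples was left out. Coding genes supplied 6 of the higher and 10 of the lower calls among 259 tested, and all other member genes 11 and 2 among 240 tested. Genes with no overlapping exon of another gene and no same-strand host intron at any of their peaks were called in 10 of 264 cases (3.79%). Those with such an overlap were called in 19 of 235 (8.09%). Opposite-strand introns were not looked at in this split.

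Among the higher genes, Rnase2b, a member of the eosinophil-associated ribonuclease family, had input levels of 5.41, 6.51 and 5.40 CPM in control and 14.8, 14.7 and 13.7 in UV. The groups were wide apart (log2 change 1.32, SE 0.11, edgeR adjusted p = 0.00228), although its family has many close copies between which reads may be split. H2afj, a histone H2A variant, had 61.8, 55.7 and 73.8 CPM in control and 97.7, 87.1 and 93.3 in UV (0.54, SE 0.11, adjusted p = 0.0312). Rrs1, a ribosome assembly factor, had 32.3, 31.3 and 38.6 CPM in control and 46.6, 46.9 and 42.8 in UV (0.41, SE 0.10, adjusted p = 0.0493). No control value reached a UV value in either gene. Called genes were picked from these same values, so such separation here and in the genes below adds no support. Enrichment at the Rrs1 peak was 1.89, 2.27 and 2.09 in control and 1.97, 1.91 and 1.95 in UV, which overlapped.

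Among the lower genes, Kctd12, an auxiliary subunit of GABA-B receptors, had the largest fall of a gene with at least 5 CPM and an established name. Its levels were 55.5, 61.8 and 40.7 CPM in control and 23.9, 21.5 and 26.2 in UV (-1.14, SE 0.15, adjusted p = 0.00812). Gm26778 on the other strand covers the same place with a like mean level, 35.2 CPM against 38.3, and a like change of -1.14, so the 2 genes cannot be told apart. The WNT receptors Fzd1 and Fzd10 fell together. Fzd1 had 40.7, 33.6 and 28.4 CPM in control and 17.8, 24.6 and 21.1 in UV (-0.70, SE 0.16, adjusted p = 0.0408), and Fzd10 had 33.7, 34.4 and 33.1 in control and 18.0, 23.4 and 23.8 in UV (-0.63, SE 0.11, adjusted p = 0.0199). Fzd7 did not pass, with 86.0, 83.5 and 67.9 CPM in control and 72.7, 79.6 and 73.2 in UV (-0.07, SE 0.10, adjusted p = 0.698). Of 6 tested frizzled receptors and WNT or Notch regulators 2 fell and none rose, where 2.81% of all genes tested fell and 3.02% rose. None of this list was called in the fits that left out control sample 1 or any 1 UV sample.

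Sox21, a SOX factor of the hair follicle and epidermis, had 66.1, 61.6 and 53.0 CPM in control and 37.8, 42.7 and 47.3 in UV (-0.50, SE 0.11, adjusted p = 0.0421). Cldn4, a tight junction claudin, had 38.2, 36.6 and 40.8 CPM in control and 26.5, 29.8 and 29.4 in UV (-0.43, SE 0.09, adjusted p = 0.0275). In both genes every UV value was below every control value. Enrichment overlapped between groups at both: the Cldn4 peak gave 1.05, 1.39 and 1.11 in control and 1.46, 1.38 and 1.26 in UV, and the main Sox21 peak 1.44, 1.99 and 1.56 in control and 1.67, 1.79 and 1.57 in UV.

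**Figure D5:**
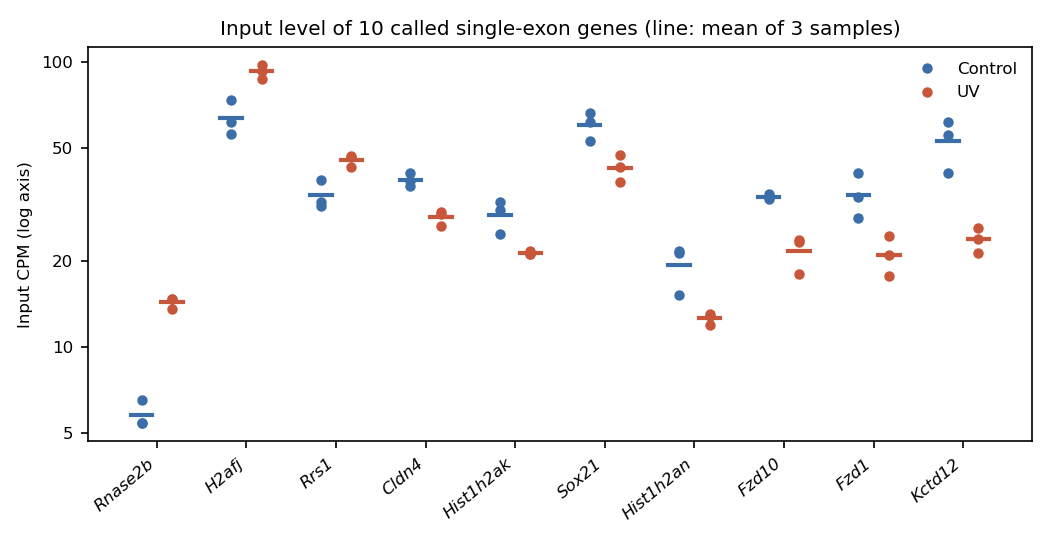
Input level in CPM (vertical log axis) of the 10 called member genes with established names and a mean of at least 5 CPM, per sample, with the mean of 3 as a line. Control and UV samples do not overlap in any of the 10 genes. The genes were picked as called from these same values, so this adds no support.

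Of 86 histone genes tested, 27 fell in UV skin, where 2.81% of all genes tested did, and 1 (H2afj) rose, at an edgeR adjusted p under 0.05, with a median log2 change of -0.46 against -0.02 over all genes tested. Only 10 of the histone genes had a member peak, and of these Hist1h2ai, Hist1h2ak and Hist1h2an fell. Hist1h2an had 21.4, 15.3 and 21.7 CPM in control and 13.1, 11.98 and 12.8 in UV (-0.63, SE 0.14, adjusted p = 0.0374). Hist1h2ak had 32.3, 24.8 and 30.4 CPM in control and 21.3, 21.2 and 21.7 in UV (-0.45, SE 0.11, adjusted p = 0.0469). The linker histones with the most IP reads did not pass: Hist1h1c changed by 0.07 (SE 0.13), Hist1h1e by -0.06 (SE 0.12) and H1f0 by -0.07 (SE 0.07). The histone count was 9 without control sample 1 and between 7 and 8 without 1 UV sample. It stayed above the count of risen histone genes under each alternative run.

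Calls in the other lists ran from none to 3 genes. Over all genes tested, 3.02% were called higher in UV and 2.81% lower. The calls among 54 clustered protocadherins and 33 mitochondrial genes were close to these shares. Of 6 AP-1 and immediate early genes, 15 G protein-coupled receptors and 50 hair keratin-associated genes tested, none was called in either direction by edgeR. Sox21 was the only 1 of 16 SOX, FOX and POU factors to be called, and Pcdhb17 (0.75, SE 0.17, adjusted p = 0.0378) and Pcdhb9 (1.61, SE 0.27, adjusted p = 0.0157), the latter without a member peak, rose among 54 clustered protocadherins. Of 9 structural RNAs tested, none of which has a member peak, 3 fell, with a median change of -0.47 over the 9: Rny1 and Rny3, which are Y RNAs (-1.44, adjusted p = 0.0142, and -1.46, adjusted p = 0.00548), and Scarna2, a small Cajal body RNA (-0.40, adjusted p = 0.0255). Hspa1l (-0.80, SE 0.14, adjusted p = 0.0189) fell among 4 heat shock genes and mt-Te (-0.92, adjusted p = 0.0107) among 33 mitochondrial genes, both without a member peak. Jun stood at 101, 73.9 and 87.8 CPM in control and 85.2, 78.3 and 91.8 in UV, which overlapped (-0.04, SE 0.12, adjusted p = 0.859). Sfn, at 962, 885 and 1333 CPM in control and 1353, 1163 and 1055 in UV, overlapped too (adjusted p = 0.576). Hspa1a had 60.5, 49.7 and 72.3 CPM in control and 92.3, 72.3 and 98.5 in UV (0.53, SE 0.16, adjusted p = 0.0833).

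Several called genes with provisional names lie inside longer genes. Gm43999, Gm44001 and Gm44005 lie in introns of Mgll, which encodes monoacylglycerol lipase, and rose by 1.09, 1.09 and 1.18, beside a change of 0.85 (SE 0.21, adjusted p = 0.0531) for Mgll itself. Gm44001 had 12.9, 13.6 and 13.3 CPM in control and 33.0, 25.4 and 26.3 in UV (adjusted p = 0.00389). Its peak was among the 12 with a mean below 0, at -0.62, -0.32 and -0.67 in control and -0.32, -0.36 and -0.12 in UV. Gm45399, in an intron of Rrm1, rose by 0.80 beside 0.32 (adjusted p = 0.0529) for Rrm1, and Gm37760, in an intron of Casp8, by 0.66 beside 0.40 (adjusted p = 0.0678) for Casp8. A gene with a clone name, in an intron of Rnf146, rose by 0.57 beside 0.40 (adjusted p = 0.0689) for Rnf146. Other called genes in introns had hosts with smaller or opposite estimates that did not pass: Gm19402 fell by 1.14 beside 0.03 for Bcl9l (adjusted p = 0.888), Gm37303 rose by 0.54 beside -0.01 for Zfp280d (0.981) and Gm44439 rose by 0.58 beside -0.12 for Chl1 (0.671). Reads of such a gene and of its host's unspliced RNA cannot be told apart in these counts. The genes opposite Sox21, H2afj, Hist1h2ai and Hist1h2an were called in the same direction, with changes of -0.69, 0.70, -1.01 and -0.67. At 4 other called genes the gene opposite did not pass: B930036N10Rik fell by 1.27 beside 0.00 for Alyref2 (adjusted p = 0.999), and Gm45606 rose by 0.98 beside 0.19 for Slc43a2 (0.444). Gm43352 fell by 1.21 beside -0.77 for Lef1 (0.153), and Hist1h2ak, given above, stood beside -0.33 for Gm44454 (0.187).

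Library depth was 24126662 to 92163619 reads in genes. The labelled tissue was borne out by its markers, since keratin, collagen, hair, sebocyte and melanocyte genes were present in all input libraries and none of the 27 markers looked at was at 0. In bulk skin, fewer cells of a type and less RNA per cell cannot be told apart. Markers that differed between groups were the T cell genes Cd3e, Cd3g and Trdc, all 3 lower (summed level 7.64 to 10.05 CPM in control and 1.06 to 1.45 in UV), 2 of 3 fibroblast genes lower (5411 to 6431 CPM in control and 3734 to 4470 in UV) and 1 of 2 sebocyte genes higher. None of 5 keratin and loricrin genes of the epidermis was called, while summed levels ran from 3419 to 8396 CPM in control and 8329 to 12949.9 in UV for the basal layer, and from 10714.9 to 39154 in control and 32519.9 to 53757 in UV for the upper layers. The part of these markers in the expression differences above was not tested.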

How the data were processed

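The authors aligned reads with STAR 2.5.3a to GRCm38, per the submitters' processing notes. For the peak caller, counter, annotation release and use of strand, nothing was given in the sources used here. Libraries were made with a stranded kit, per the labels' protocols. The deposited tables hold raw counts per gene and raw counts per peak for the 12 libraries, with peaks listed per arm, and the authors' log2 fold change, p-value and FDR per peak. Members were found from both tables by the rule in the opening. Peak starts in the file count from 0, and printed starts have 1 added. CPM of a peak scales a count by the library's total reads in genes. CPM of a gene scales it by that total multiplied by the library's TMM factor.

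All peak rows were fitted with edgeR 4.0.16 in R 4.3.3 (TMM scaling, filterByExpr, quasi-likelihood test of the difference of IP over input, 4 groups), and all genes likewise in the 6 input libraries. P-values were adjusted by Benjamini-Hochberg over all features tested and called under 0.05. The standard error is the change divided by the square root of F. Of the members, 22 peaks and 6 genes fell to the filter on low counts. The labels pair IP with input by sample. IP and input deviations of the same sample correlated at 0.227 to 0.442, and those of different samples of an arm at -0.373 to -0.105. Deviations of the samples of an arm are not free of each other, so the negative values are no separate support for the pairing. Alternatives were library size scaling, DESeq2 1.42.0, no filter, gene table scaling factors, a replicate block, leaving out each sample, and the authors' FDR. Code was tested on simulated data. Members, gene lists and tests were chosen with earlier results of these data known. Genes named are, outside provisional names, the 10 members per direction with the smallest p, called genes of at least 5 mean CPM, the 10 with the highest input, and per list the 4 peaks with the most IP reads. Others named were chosen after their values were seen.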

Additional observations from a re-analysis of the deposited data

Results flagged for a closer look

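At 1 member peak, in RP24-178J22.1 (chr8:104442687-104442865, plus strand), every control sample lay above 0 and every UV sample below 0. Log2 IP over input was 0.14, 0.20 and 0.17 in control and -0.15, -0.09 and -0.18 in UV, a difference of means of -0.31. The change in the edgeR fit was -0.41 (SE 0.12, adjusted p = 0.540), and the adjusted p was 0.0665 with the replicate block.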

How the results depend on the processing

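The number of member peaks was 541 of 720 when at least 50% of both peaks had to overlap and 717 with widths up to 2000 bp. The 0 members called for a change of IP over input stayed 0 with library size scaling, without the filter on low counts, with gene table scaling factors, by the authors' FDR and without each sample in turn (0 to 0), and became 1 with DESeq2 and 3 with the replicate block. Library size scaling alone moved the median change over all peaks from 0.03 to 0.13 and over all genes from -0.02 to -0.12. The 29 genes called for expression became 33 (14 higher, 19 lower) with library size scaling, 56 (29 and 27) with DESeq2, 44 (24 and 20) without the filter and 17 (10 and 7) with a replicate block, and 4 to 43 without 1 sample. Control and UV inputs of the same number correlated at -0.107 to 0.0275, so that block rests on a number alone. The 10 peaks per direction with the smallest p and the 10 named genes called for expression were followed through the alternatives. None of these changed direction under any alternative run. Other named results were not followed in this way. For the 10 named genes, 43 of 100 values under an alternative missed the threshold, and Kctd12 and Rnase2b passed in all 10 alternatives each. With 3 samples per group and a median standard error of 0.29 for peaks without the replicate block, depth and sample number limit what single peaks can show.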
